A study of Mus musculus with 21 samples.

Results

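Chromosomes 18 and 19 are small mouse autosomes, and every probed region on them was followed across 21 liver tumours. The regions were chosen by position alone, as all probes that the array places on either chromosome. This gave 5951 regions of 96579 on the arrays, 3104 on chromosome 18 and 2847 on chromosome 19, against 90385 on chromosomes 1 to 17 and X. The pair of chromosomes was itself selected on the gains and losses measured in these same tumours. The levels and calls below are therefore descriptions without a test, and a test is given only where the 2 groups of mice are compared. In mm9 coordinates the regions run from 3181133 to 90762649 on chromosome 18 and from 3147156 to 61319646 on chromosome 19.

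The tumours arose in C57BL/6 mice kept for 12 months on CD-HFD, a diet without choline and rich in fat that is used to model non-alcoholic steatohepatitis. The CD-HFD group holds 9 tumours of 7 mice that received the diet alone. The anti-PD1 group holds 12 tumours of 7 other mice on the same diet that were also given anti-PD1, an antibody that blocks an inhibitory receptor of T cells, for 8 weeks. Every animal thus carried both the diet and a tumour, and the comparison asks whether tumours that were present under the antibody carried other copy number changes. The labels give neither age nor substrain, they do not say whether the diet-alone mice received a control antibody, and the study's general methods speak of male mice. The number that opens each title was read as the mouse and the number after L as the lesion, so that 608 L6 is lesion 6 of mouse 608. Of the mice, 3 anti-PD1 and 2 CD-HFD animals gave more than 1 tumour.

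Array comparative genomic hybridisation measures DNA, not RNA. DNA from formalin-fixed, paraffin-embedded tumour tissue was labelled with Cy3 and read beside a Cy5-labelled reference, named in the labels as a pool of liver tails, on the same array. No array had the dyes exchanged, so a dye effect of a probe cannot be told apart from a copy number difference. Each value is the log2 ratio of tumour over reference, centred on the median of its array. A single extra copy in every cell would give 0.58 and the loss of 1 of 2 copies −1. In tissue, the share of cells that carry a change and the number of copies per cell cannot be told apart. The 21 arrays lay on 3 slides and belonged to 2 probe designs with 12733 probes in common, and each slide held tumours of both groups. Between 64.9% and 98.8% of the spots of an array were well above background in both channels. On chromosome 18 this share ran from 69.0% to 99.4% and on chromosome 19 from 71.3% to 99.3%.

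Whole-chromosome gains and losses change the dose of all genes on a chromosome at once, while focal changes touch a few. Chromosome 18 holds Apc, the scaffold of the complex that degrades beta-catenin, Dcc, a netrin receptor, and Smad2 and Smad4, which carry TGF-beta signals to the nucleus.

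Chromosome 19 holds Men1, which encodes the chromatin adaptor menin, the death receptor gene Fas, and Cd274, which encodes PD-L1, the ligand of the receptor that the antibody blocks. Mouse chromosomes are acrocentric, so the lowest coordinates lie next to the centromere.

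A pair of probes that is described at the end lies within an intron of Glis3, a gene of the Krüppel-like zinc finger transcription factor family on chromosome 19. Their sequences are shown with those of the nearest probe on each side, because the tumour signal at the pair was bright in 1 group and not well above background in the other on 1 slide, while the flanking probes were well above background in all 8 tumours of that slide. All are 60-base probes in the file's orientation, in mm9 coordinates, and their intronic position comes from a single match to the GRCm38 annotation. The probes A_67_P09144748 and A_67_P09144827 lie at chr19:28698712-28698771 and chr19:28731477-28731536, and the probes A_67_P03578079 and A_67_P03578103 between them at chr19:28705883-28705942 and chr19:28718283-28718342.
A_67_P09144748: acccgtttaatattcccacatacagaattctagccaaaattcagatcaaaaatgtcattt
A_67_P03578079: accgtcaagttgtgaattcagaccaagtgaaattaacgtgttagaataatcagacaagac
A_67_P03578103: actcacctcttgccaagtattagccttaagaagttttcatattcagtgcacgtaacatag
A_67_P09144827: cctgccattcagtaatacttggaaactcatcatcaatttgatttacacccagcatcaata

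Chromosome 18 lay above the array median in most tumours, and 1 tumour stood far above the rest. Over the 21 tumours its mean log2 ratio ran from −0.04 in 2064 L1 to 0.48 in 1109, with a median of 0.07, and it was above 0 in 20. The standard error of a chromosome mean over its probes was 0.01 to 0.02, which covers the noise of single probes only. In the anti-PD1 group the level was 0.48 in 1109, 0.20 in 608 L6, 0.12 in 608 L3 and in 612 L2, and 0.03 to 0.09 in the other 8. In the CD-HFD group it was 0.21 in 2088 L1, 0.16 in 1770 L4, −0.04 in 2064 L1, and 0.04 to 0.08 in the other 6. The groups overlapped, with tumour 1109 alone above all CD-HFD tumours and 2064 L1 alone below all anti-PD1 tumours.

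Chromosome 19 lay below the array median in most tumours, and its extremes were a gain and losses in anti-PD1 tumours. Its mean log2 ratio ran from −0.22 in 612 L5 to 0.27 in 608 L6, with a median of −0.03, and it was above 0 in 4 of 21. After 608 L6, the highest tumours were 1770 L1 and 2064 L1 at 0.06 each and 608 L1 at 0.03. The lowest after 612 L5 were 608 L3 at −0.17, 1109 at −0.10 and 2088 L1 at −0.10. All CD-HFD tumours lay between −0.10 and 0.06, inside the anti-PD1 range. Chromosome 18 was higher than chromosome 19 in 19 of 21 tumours, with a median difference of 0.08 and a range from −0.10 in 2064 L1 to 0.58 in 1109.

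**Figure D1:**
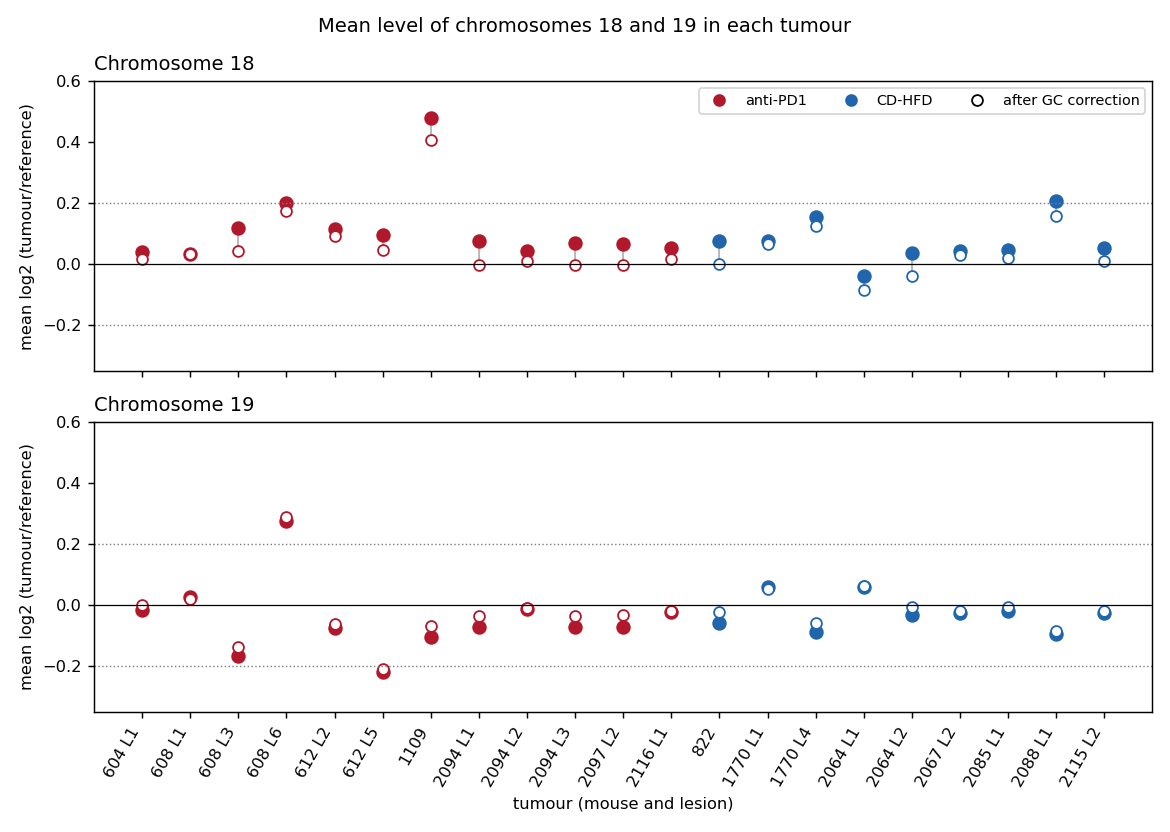
Mean log2 ratio of tumour over reference for chromosome 18 (top) and chromosome 19 (bottom) in each of the 21 tumours, before (filled) and after (open) correction for GC content, with dotted lines at 0.2 and −0.2, the threshold used for calls. Tumour 1109 reaches 0.48 on chromosome 18, while on chromosome 19 tumour 608 L6 reaches 0.27 and tumour 612 L5 falls to −0.22.

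The GC content of the DNA moved with these levels. The 1-Mb windows of chromosome 18 had lower log2 ratios where GC was higher (Pearson's r = −0.591 and Spearman's rho = −0.577 over 75 windows, medians over tumours), as did those of chromosome 19 (r = −0.646, rho = −0.607, 56 windows) and of all autosomes (r = −0.688, 2107 windows). The windows share the same arrays and neighbouring DNA, so these correlations are descriptions. After a correction for GC fitted on each array, the level of chromosome 18 ran from −0.08 to 0.41 with a median of 0.02, and 16 of 21 tumours were above 0. Chromosome 19 then ran from −0.21 to 0.29 with a median of −0.02, and 4 of 21 were above 0. The tumours at the extremes were the same as before the correction: 1109 on chromosome 18, 608 L6 and 612 L5 on chromosome 19. The corrected level of chromosome 18 was 0.18 in 608 L6, 0.16 in 2088 L1 and 0.13 in 1770 L4.

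Whole-chromosome gain of chromosome 18 was seen in tumour 1109 under all 11 ways of processing that were tried. A segment, a run of at least 10 probes with a common mean, was called gained or lost where its mean was at least 0.2 away from 0. In 1109, segments at 0.50 covered 3254054 to 60732387 and 62586723 to 90762619, a segment at 0.09 lay between them, and 97.3% of the windows were gained. In 608 L6 a single segment at 0.20 spanned the chromosome, which counted 100% as gained. Another 7 tumours had gains of part of chromosome 18, from 5.33% of the windows in 1770 L4 to 17.3% in 2094 L3. Losses were short. Windows were called lost in 3 tumours, 608 L3 and 2097 L2 with 1.33% each and 822 with 2.67%, and all 4 lost segments were 0.507 to 1.92 Mb long with means from −0.47 to −0.30.

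On chromosome 19 losses of part of the chromosome prevailed. Apart from segments of 10 probes at Glis3, described below, tumour 608 L6 was the only one with a gain, a 31.6-Mb segment from 11009571 to 42637467 at 0.35 that took 55.4% of the windows, flanked by segments at 0.14 and 0.19. Losses were called in 10 tumours and ran from 10.7% of the windows in 612 L5, 2097 L2 and 2088 L1 to 41.1% in 1770 L4 and 46.4% in 608 L3. The 15 lost segments measured 4.83 to 19.2 Mb, with means from −0.37 to −0.21. The calls nearest the threshold were 608 L6 on chromosome 18 (0.20) and the distal segment of 1770 L4 on chromosome 19 (−0.21) just inside it, and the distal segment of 608 L6 on chromosome 19 (0.19), most of chromosome 18 in 2088 L1 (0.19) and most of chromosome 19 in 612 L5 (−0.19) just outside.

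After GC correction 3 calls were left, each for a whole chromosome, beside the segments of 10 probes at Glis3. Chromosome 18 was gained over 100% of its windows in 1109. Chromosome 19 was gained over 100% of its windows in 608 L6 at 0.29 and lost over 100% in 612 L5 at −0.21, just past the threshold, while 608 L3 stood at −0.14. Over 11 ways of processing the same arrays, the gain of chromosome 18 in 1109 covered at least 90% of the windows in 11. The gain of chromosome 18 in 608 L6 covered as much in 6 of 11, its gain of chromosome 19 in 6, and the loss of chromosome 19 in 612 L5 in 5. In 2088 L1 a gain of chromosome 18 covered as much in 3. Counting any call, part or whole, chromosome 18 was gained in 6 of 11 in 608 L6 and in 7 in 2088 L1, and chromosome 19 was gained in 10 in 608 L6. A loss on chromosome 19 was called in 10 of 11 in 612 L5 and in 1109, in 8 in 1770 L4, 2094 L1, 2094 L3, 2097 L2 and 822, in 7 in 608 L3, and in 6 or fewer in the other tumours.

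**Figure D2:**
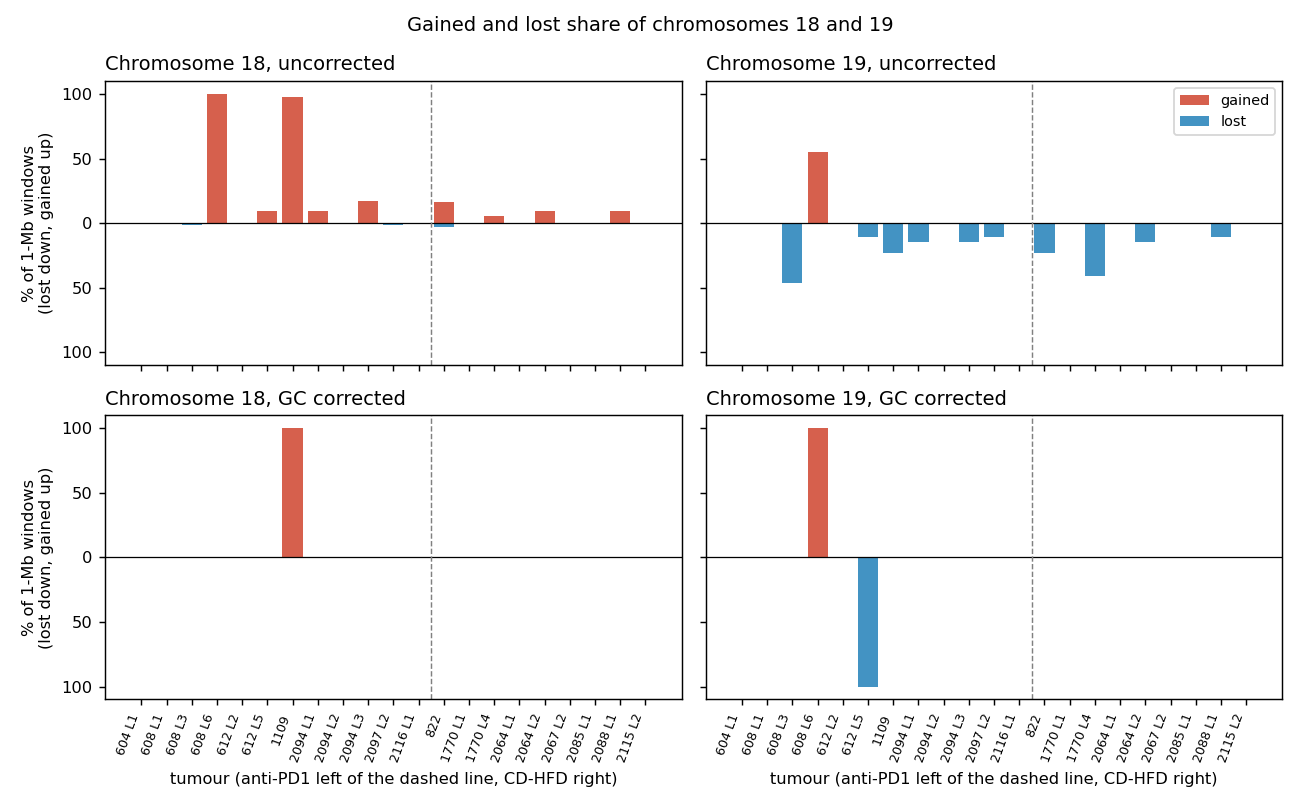
Share of the 1-Mb windows of chromosome 18 (left) and chromosome 19 (right) that was gained (up) or lost (down) in each tumour, without (top) and with (bottom) GC correction. Without correction 9 tumours have gains on chromosome 18 and 10 have losses on chromosome 19, and with correction the calls left are those of 1109, 608 L6 and 612 L5.

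Segment ends recurred at the same places in tumours of both groups. On chromosome 19, 14 tumours had an end between 9050289 and 11442663 (8 anti-PD1 and 6 CD-HFD), and 11 had one between 41547800 and 42637467 (6 and 5). On chromosome 18, 6 tumours (3 and 3) had an end between 10595754 and 10818026, and 5 (4 and 1) between 60717716 and 60732387. After GC correction 0 tumours had an end at these places. The ends divide chromosome 19 into a proximal part up to 11 Mb, a middle part to 42 Mb and a distal part, and the parts of chromosome 18 were set at 11 and 85 Mb. All these limits were chosen after the segments were seen.

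The proximal part of chromosome 19 was the most gene-dense and GC-rich of these parts, with 244 gene symbols on its probes (31.1 per Mb) and 48.5% GC. Its log2 ratio ran from −0.37 to 0.14 with a median of −0.18 and was above 0 in 3 of 21 tumours. The middle part, at 41.5% GC, had a median of 0.05, and the distal part, at 45.0% GC, one of −0.12. The proximal part was below the middle part in 19 of 21 tumours before GC correction and above it in 20 of 21 after, so the direction turned with the correction. With the deposited loess ratios the medians of the proximal and middle parts were −0.12 and 0.03. With the normexp background correction they were −0.17 and 0.01, so the order of the medians did not turn under either. The distal part was below the middle part in 20 of 21 before and 19 of 21 after, with the median difference going from −0.14 to −0.04.

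The proximal part of chromosome 18 had 48 symbols (6.15 per Mb, against 7.30 in the middle part) and 41.5% GC, and lay above 0 in all tumours before and after GC correction and in 20 of 21 with the deposited loess ratios. Its log2 ratio ran from 0.10 to 0.61 with a median of 0.23 before GC correction, and from 0.05 to 0.44 with a median of 0.13 after. It was above the middle part in 21 of 21 tumours both before and after correction, with a median difference of 0.19 before and 0.09 after. With the loess ratios it was below the middle part in 1770 L1, at 0.0082 against 0.015. The distal end beyond 85 Mb, at 37.9% GC and with 15 symbols, had a median of 0.23 before and 0.07 after. All tumours were read against the same reference, so a difference of the reference itself from the tumour DNA at these ends cannot be told apart from a change in the tumours.

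The median correlation between a pair of tumours was 0.49 over the windows of chromosome 18 (−0.09 to 0.94) and 0.659 over those of chromosome 19 (0.04 to 0.97), against 0.557 over all autosomes. After GC correction it was 0.485, 0.471 and 0.371 in the same order. The 210 pairs share the reference and the probes, so these are descriptions. The highest windows of chromosome 18 were 71 to 72 Mb, which holds Dcc, at 0.42 ± 0.25 (SD over 14 mice), and 90 to 91 Mb, which holds Tmx3, a disulfide isomerase gene, at 0.36 ± 0.15. The lowest were 45 to 46 Mb with Kcnn2 and Ythdc2 at −0.09 ± 0.20 and 61 to 62 Mb with the receptor kinase genes Pdgfrb and Csf1r at −0.08 ± 0.13. After GC correction the Dcc window stood at 0.23 ± 0.19 and the Tmx3 window at 0.20, while the window at 45 Mb stood at −0.27 ± 0.17 and the one at 61 Mb at 0.10.

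The highest windows of chromosome 19 were those at 20 and 39 Mb. The window at 20 to 21 Mb, with the retinaldehyde dehydrogenase gene Aldh1a1 and its relative Aldh1a7, was at 0.30 ± 0.09, and the window at 39 to 40 Mb, within the Cyp2c cluster of drug-metabolising cytochrome P450 genes, was at 0.26 ± 0.11. The lowest was 6 to 7 Mb, with Men1, Capn1 and Esrra, at −0.33 ± 0.10 and 50.7% GC. After GC correction the Cyp2c window stood at 0.02 and the Men1 window at −0.04 ± 0.06, while the Aldh1a1 window stood at 0.13.

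**Figure D3:**
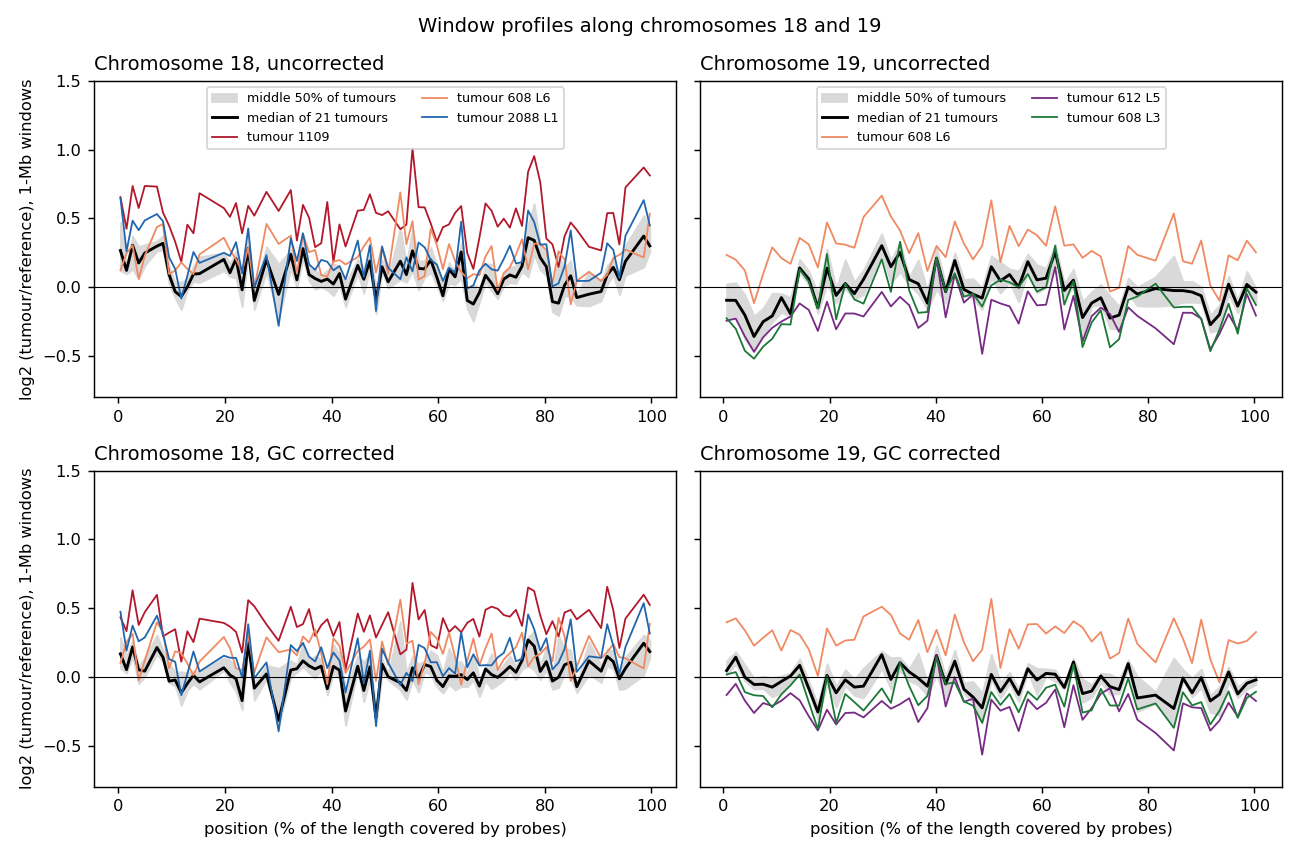
Log2 ratio of 1-Mb windows along chromosome 18 (left) and chromosome 19 (right) before (top) and after (bottom) GC correction, as the median of 21 tumours (black), the middle 50% of tumours (grey) and named single tumours. Before correction the median dips below 0 near the start of chromosome 19 and rises at both ends of chromosome 18, while 1109 lies mostly above it on chromosome 18 and 608 L6 mostly above it on chromosome 19.

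The genes below come from lists of known function and are described by the mean log2 ratio of all probes within 500 kb of the gene, while its gains and losses are the calls at its own window. All 54 listed genes had named probes, 22 on chromosome 18 and 32 on chromosome 19. Neighbouring genes share probes, and these are levels of DNA around a gene, not of its expression. On chromosome 18 the mean over mice was above 0 in 59 of 75 windows, and on chromosome 19 in 26 of 56. The counts for the lists are read beside these, and nothing particular to a list was tested. Gains and losses are given without GC correction unless it is named. After the correction every listed gene of chromosome 18 lay within 1 gain, that of 1109, and every listed gene of chromosome 19 within 1 gain, that of 608 L6, and 1 loss, that of 612 L5.

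Of the 7 growth control genes of chromosome 18, 6 had a mean over mice above 0, and the median of their means was 0.06 against 0.11 for all windows of the chromosome. Apc ran from −0.06 to 0.50 with a median of 0.07 and was within a gain in 608 L6 and 1109. Dcc ran from −0.08 to 0.80 with a median of 0.19 and lay within a gain in 4 tumours. After GC correction its median was 0.04 and it lay within a gain in 1. Smad4 ran from −0.19 in 822 to 0.21 in 1109, and Smad7, which encodes an inhibitor of TGF-beta signalling, from −0.23 in 2097 L2 to 0.32 in 1770 L1. None of the 7 was within a loss, where 2 of the 75 windows of the chromosome were within a loss in any tumour.

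Of the 5 receptor and ligand genes of chromosome 18, 3 had a mean above 0. Pdgfrb, the receptor of platelet-derived growth factor, ran from −0.34 to 0.12, and Csf1r, the macrophage growth factor receptor, from −0.35 to 0.14. Both lay within the short losses of 608 L3, 2097 L2 and 822, as did Ppargc1b, a coactivator of mitochondrial and lipid genes, at −0.31 to 0.11. A lost segment of 2094 L3 from 60718249 to 61225566 at −0.47 also overlapped Pdgfrb, which was lowest in that tumour, but it held no window midpoint and is not counted. All of these losses were gone after GC correction. The glucocorticoid receptor gene Nr3c1 ran from −0.07 to 0.50. Among the 5 immune genes, of which 4 had a mean above 0, Tslp, an epithelial cytokine gene, ran from 0.11 to 0.59, and Cd74, the invariant chain of class II molecules, from −0.27 to 0.18. Among the 5 genes of liver metabolism, also with 4 above 0, the transthyretin gene Ttr ran from 0.04 to 0.59 with a median of 0.19. After GC correction the medians were 0.03 for Pdgfrb, 0.04 for Csf1r, 0.03 for Ppargc1b, 0.06 for Nr3c1, 0.18 for Tslp, 0.08 for Cd74 and 0.11 for Ttr.

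Of the 7 growth control genes of chromosome 19, 2 had a mean above 0, and the median of their means was −0.11 against −0.02 for all windows. Of the 56 windows of chromosome 19, 26 were within a loss in any tumour. Its lists had 5 of 7 growth control, 3 of 10 immune, 6 of 8 lipid and 2 of 7 detoxification genes within one. Men1 ran from −0.54 in 1770 L4 to 0.06 in 608 L1 with a median of −0.27. It lay within a loss in 10 tumours, but after GC correction its median was −0.01 and it lay within a loss in 1 tumour. Fas ran from −0.07 to 0.50 with a median of 0.14, or 0.03 after GC correction. The hedgehog inhibitor gene Sufu, with a median of −0.20, and Btrc, a ubiquitin ligase subunit that targets beta-catenin, with −0.21, were each within a loss in 4 tumours, and had medians of −0.09 and −0.05 after GC correction. Tcf7l2, the transcription factor partner of beta-catenin, ran from −0.21 to 0.29 with a median of −0.06, or 0.04 after GC correction, and was within a loss in 2.

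Of the 10 immune and interferon genes of chromosome 19, 7 had a mean above 0. Cd274 ran from −0.12 in 612 L5 to 0.32 in 608 L6 with a median of −0.02, or −0.07 after GC correction, and Jak2, the kinase gene nearby that serves interferon gamma receptors, from −0.08 in 1770 L4 to 0.34 in 608 L6. Both lay within a gain in 608 L6 and in no loss before GC correction, and both lay within the whole-chromosome loss of 612 L5 after it. The interferon-induced gene Ifit1 ran from −0.14 to 0.47. Rela, an NF-kappaB subunit gene in the proximal part, ran from −0.46 to 0.21 and lay within a loss in 10 tumours, and Nfkb2 and Chuk of the same pathway, in the distal part, within a loss in 4 each. After GC correction the medians of these genes were −0.0036, −0.06 and −0.07.

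Of the 8 lipid metabolism genes of chromosome 19, 4 had a mean above 0. The desaturase genes Fads1 and Fads2 had medians of −0.15 and −0.12 and lay within a loss in 7 tumours each, and Scd1, which makes monounsaturated fatty acids, had a median of −0.07 with a loss in 4. After GC correction these medians were −0.00087, 0.02 and 0.0065. Cpt1a, the gate of fatty acid entry into mitochondria, had a median of 0.02, or 0.07 after GC correction, and lay within a loss in 10. Gpam, which starts triglyceride synthesis, ran from −0.21 to 0.48, and Lipa, the lysosomal acid lipase gene, from −0.18 to 0.44.

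Among the 7 detoxification and liver transport genes of chromosome 19, 4 had a mean above 0. Cyp2c29 ran from 0.07 to 0.62 with a median of 0.32 and was above 0 in 21 of 21 tumours, and its median after GC correction was 0.07. Aldh1a1 had a median of 0.28 before and 0.05 after. The glutathione transferase gene Gstp1 had a median of −0.12, lay within a loss in 10 tumours, and had a median of 0.13 after GC correction. The Cyp2c genes and Gstp1 belong to families with close copies, whose DNA a probe may not tell apart. Across all 54 genes the mean over mice changed sign with the GC correction in 19, with the deposited loess ratios in 17 and with another background correction in 10.

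Set beside the other chromosomes, chromosome 18 was the fourth highest of 20 by its median level and chromosome 19 the seventeenth. Their spread between tumours was in the middle of the order, with an SD of 0.10 on each. After GC correction they were ninth and nineteenth. Within 1109, chromosome 18 was the highest of all chromosomes, and within 612 L5 chromosome 19 was the lowest. In 608 L6, other chromosomes were higher than either, and more of the windows of the other autosomes were altered there than in 1109 (24.2%) or 612 L5 (5.33%).

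**Figure D4:**
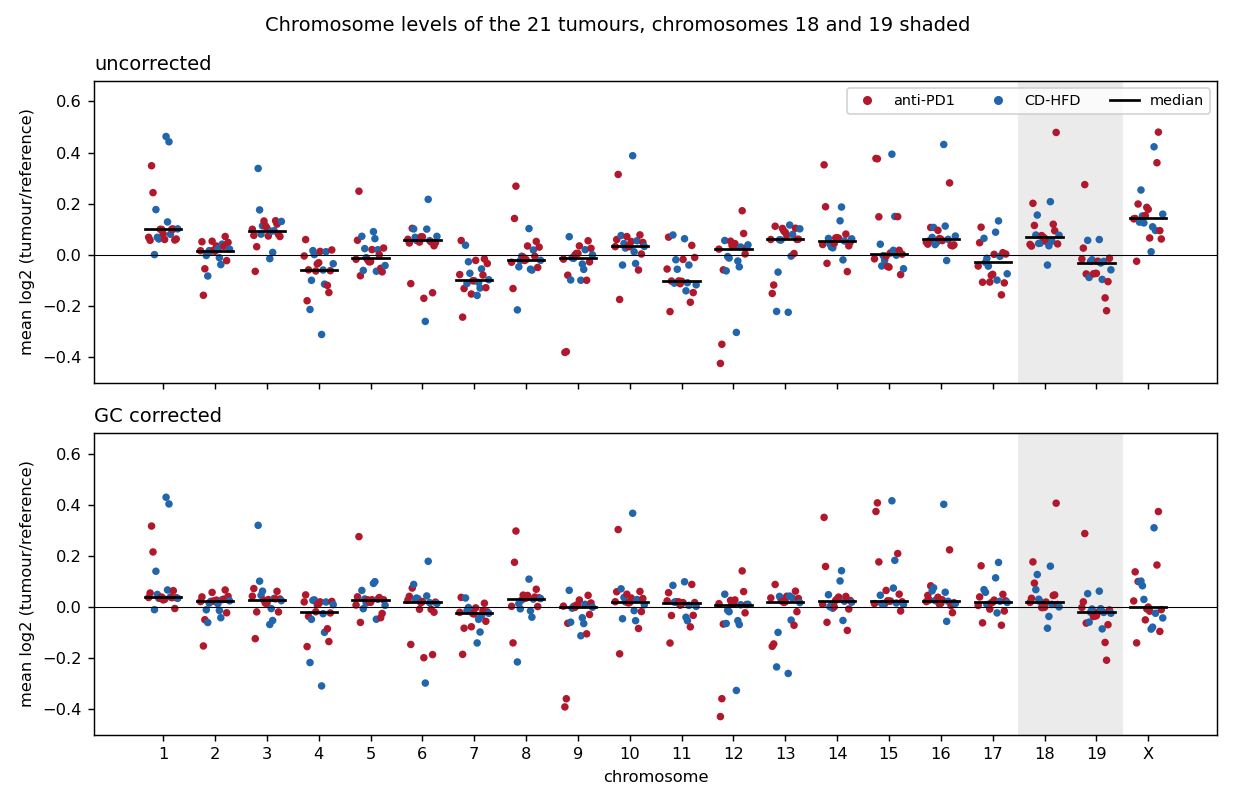
Mean log2 ratio of each chromosome in each of the 21 tumours before (top) and after (bottom) GC correction, with a bar at the median and chromosomes 18 and 19 shaded. The median of chromosome 18 lies at 0.07 before and 0.02 after correction and that of chromosome 19 at −0.03 and −0.02.

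Lesions of the same liver differed on chromosome 19. In mouse 608, given anti-PD1, the 3 lesions were at 0.03 in L1, −0.17 in L3 and 0.27 in L6, a range of 0.44 that was 0.43 after GC correction. The other 4 mice with several tumours had ranges of 0.06 to 0.15 on this chromosome. On chromosome 18 the lesions of mouse 608 spanned 0.17, and those of the other 4 mice 0.02 to 0.08. Lesion L3 of mouse 608 was on another slide and probe design than L1 and L6.

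The limma fits between groups took each tumour as an observation with its mouse as a random block, and the permutation tests took the mean of each mouse. The fitted correlation between tumours of a mouse was −0.0092 for the chromosome means, so these fits treated the tumours as nearly independent. On chromosome 18 the mean over mice was 0.13 ± 0.16 in the anti-PD1 group and 0.08 ± 0.07 in the CD-HFD group (SD, n = 7 mice each). The fitted difference of anti-PD1 minus CD-HFD, which weights tumours and so need not equal the difference of the mouse means, was 0.04 with a standard error of 0.04 and a 95% interval from −0.05 to 0.13 (limma, adjusted p = 0.877). Of the 7 anti-PD1 mice, 3 were above the CD-HFD mean, and without mouse 1109 the difference was 0.01. After GC correction the group means were 0.09 ± 0.15 and 0.04 ± 0.07. The difference without correction was 0.022 within slide 1 and −0.023 within slide 2, while slide 3 held 1 CD-HFD mouse and gives no value. Neither chromosome passed the test, and over all 20 chromosomes 0 (0%) passed at an adjusted p under 0.05, with 0 at an unadjusted p under 0.05.

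On chromosome 19 the mean over mice was −0.05 ± 0.06 in the anti-PD1 group and −0.03 ± 0.04 in the CD-HFD group (SD, n = 7 mice each). The fitted difference was −0.02 with a standard error of 0.04 and a 95% interval from −0.11 to 0.07 (limma, adjusted p = 0.908). It was 0.0024 with the slide as a fixed term, 0.040 within slide 1 and −0.021 within slide 2. The intervals reach 0.13 on chromosome 18 and −0.11 on chromosome 19, so the arrays do not show that the groups were alike.

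The gained and lost shares did not separate the groups. Chromosome 18 was gained over 20.6% ± 35.9 of its windows in anti-PD1 mice and 4.67% ± 6.05 in CD-HFD mice, a difference of 15.9 percentage points (SD, n = 7 mice each, 2-sided exact permutation test, p = 0.347, adjusted p = 1). Without mouse 1109 the difference was 3.15 percentage points. Chromosome 19 was lost over 9.18% ± 8.39 and 8.80% ± 9.87 of its windows (p = 0.956 in the same exact test). After GC correction the gained share of chromosome 18 was 14.3% ± 37.8 in anti-PD1 and 0% in CD-HFD mice. The lost share of chromosome 19 was then 7.14% ± 18.9 and 0%. Each of these shares came from 1 anti-PD1 mouse. Of the 40 shares of gain and loss tested over all chromosomes, 0 (0%) passed at an adjusted p under 0.05, and 0 had an unadjusted p under 0.05 either.

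No window or probe of chromosomes 18 and 19 passed the test between groups. Of 2223 windows in the limma fit, 0 (0%) passed at an adjusted p under 0.05, and 20 had an unadjusted p under 0.05, none of them among the 131 windows of the pair. The window of chromosome 18 with the smallest p was 63 to 64 Mb, with the mechanosensitive channel gene Piezo2, at 0.18 ± 0.19 in anti-PD1 and 0.05 ± 0.08 in CD-HFD mice (difference 0.11, standard error 0.06, adjusted p = 0.999). On chromosome 19 it was 28 to 29 Mb, with Glis3, at 0.16 ± 0.05 and 0.24 ± 0.05 (difference −0.07, standard error 0.05, adjusted p = 0.999). Without the pair of bright Glis3 probes the means of that window were 0.15 ± 0.05 and 0.16 ± 0.10. Of 12703 probes present on every array, 0 (0%) passed at an adjusted p under 0.05, and 993 had an unadjusted p under 0.05, 45 of them among the 772 probes of the pair.

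The pair of Glis3 probes was on the design of slide 1 and so was read in 8 tumours, 4 of each group. For A_67_P03578079 the log2 ratio was 6.30 in 1770 L1, 6.16 in 1770 L4, 6.14 in 2067 L2 and 6.04 in 2085 L1, all CD-HFD. In the anti-PD1 tumours it was 1.09 in 604 L1, 2.50 in 608 L1, 1.47 in 608 L6 and 0.79 in 612 L2. For A_67_P03578103, 12400 bases further on, it was 4.62, 5.14, 5.84 and 5.04 in the same CD-HFD tumours and 0.91, 1.19, 0.44 and 1.05 in the same anti-PD1 tumours. The groups did not overlap at either probe. Segments of 10 probes around the pair had means of 1.44 to 1.62 in the CD-HFD tumours. They were left out of the segment counts above and held no window midpoint, so they do not enter the shares.

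The reference was not well above background at either probe on any of the 8 arrays, so the size of these ratios is not measured. With the normexp background correction the means were 2.47 and 2.56 in the CD-HFD tumours and 1.01 and 0.97 in the anti-PD1 tumours. The tumour channel was well above background in 4 of 4 CD-HFD tumours, at 1273 to 1468 and 1444 to 1847 intensity units, and in 0 of 4 anti-PD1 tumours, at 39.4 to 187 at the first probe and at most 131 at the second. For a limit from the processed signals, those below background were set to the lowest signal that was well above it. On that scale the CD-HFD tumours were at least 5.09-fold and at least 5.90-fold brighter than the anti-PD1 tumours. They were at least 14.8-fold and at least 17.2-fold brighter than the reference. The normexp means above give smaller folds for both comparisons, so these limits hold only for the processed signals with this floor. Normexp was run with an offset of 50 added to both channels, which narrows ratios of weak signals, so its folds do not measure the size either. The flanking probes were at 0.27 ± 0.05 and −0.20 ± 0.20 in CD-HFD and 0.48 ± 0.10 and 0.08 ± 0.20 in anti-PD1 tumours (SD, n = 4 tumours each).

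**Figure D5:**
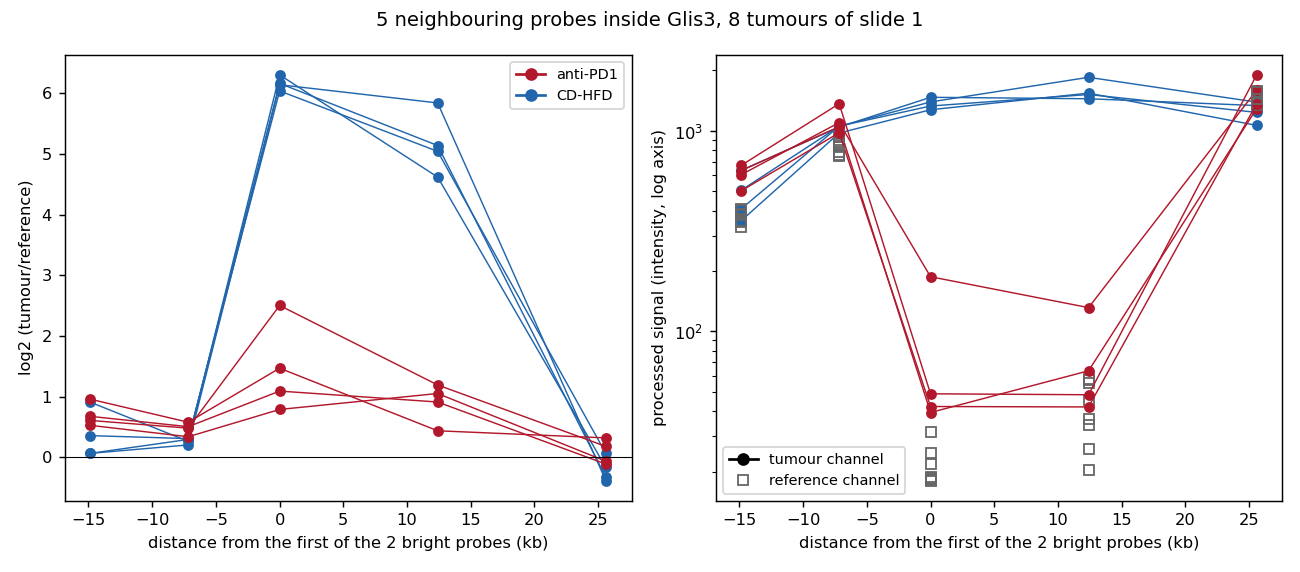
Log2 ratio (left) and processed signal on a log axis (right) of 5 neighbouring probes inside Glis3 in the 8 tumours of slide 1, by distance from the first bright probe. At the pair of bright probes the CD-HFD tumours lie at 4.62 to 6.30 and the anti-PD1 tumours at 0.44 to 2.50, while the reference channel is lower than at the flanking probes.

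These 8 tumours came from 3 CD-HFD and 3 anti-PD1 mice, and the pair of probes had no counterpart on the other design, so the pattern has no check in the other 13 tumours and was not tested. A window of chromosome 6 at 60 to 61 Mb split the mice in the same way. It stood at 1.92 to 2.99 in 15 tumours of 11 mice, 6 anti-PD1 and 9 CD-HFD, and at −0.05 to 0.63 in the 6 tumours of mice 604, 608 and 612. The anti-PD1 tumours of slide 1 all came from these 3 mice, so on slide 1 that split and the treatment coincide and cannot be told apart.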

How the data were processed

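Genomic DNA of 21 tumours was hybridised against a common reference on 2-colour Agilent arrays. The authors scanned them and deposited the Feature Extraction 11.0.1.1 output with mm9 coordinates. The deposited processed signals are intensity values from which the scanner software had already taken off the background and evened out the dyes, the deposited log10 ratio (red over green) was used to check the direction, and the authors' loess-normalized log2 ratios served as an alternative. From the intensities, log2(green/red) was computed, replicate spots were averaged, control and outlier spots were left out, and each array was centred on its median. No fold change or p-value of the authors was used.

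Segments came from optimal partitioning with a penalty of 3 × noise variance × ln(number of probes) and at least 10 probes. Calls were made on segments at an absolute mean of 0.2 or more. A window counted as gained or lost by the call at its midpoint, so that a loss of 0.507 Mb in 2094 L3 takes no window, and neither do the segments of 10 probes at Glis3. The latter were also left out of the counts of called segments. Groups were compared with limma 3.58.1 (lmFit with the mouse as a random block through duplicateCorrelation, eBayes) on chromosome means, 1-Mb windows with at least 5 probes and probes present on every array, with Benjamini-Hochberg adjustment over all of them. Shares were compared with a 2-sided exact permutation of the 14 mice, whose smallest possible p is 0.000583. GC correction was a cubic fit per array on probe and 50-kb GC, taken from GRCm38 by exact match of the probe sequences (99.7% matched once), since no mm9 sequence was used here. Python 3.11.15, numpy 2.4.6, pandas 2.3.3, scipy 1.17.1 and R 4.3.3 were used, and the scripts were tested on simulated data.

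The chromosomes, gene lists and tests were chosen with earlier results of these data known. The rule for named genes took all 54 members of the lists. The counts cover all of them, and the text gives values for a selection, chosen after the values were seen. The named windows are the 2 highest and the 2 lowest per chromosome and the one with the smallest p. Their genes are named beside them. The second lowest window of chromosome 19 and some listed genes are not reported here. The Glis3 pair was chosen after its values were seen. Precision is limited by the number of mice, 7 per group, and by a probe-to-probe noise of 0.41 to 0.68 log2 units. The text of the series counts 9 and 12 mice, whereas the titles give 7 and 7, which were used.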

Additional observations from a re-analysis of the deposited data

Results flagged for a closer look

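Of 35 groups examined for a single value far from the rest, 8 had one, and 5 of these concern mouse 1109. For chromosomes and windows a group was the 7 mice of a treatment group. For each probe of the Glis3 pair it was the 4 tumours of a treatment group on slide 1, and the pair had been chosen after its values were seen. All 8 with such a value were groups of 7 mice. Chance gives such a value in about 1 in 20 independent groups, but these groups overlap, come from chromosomes selected on the same values and include shares that are 0 in most mice, so the count is a description. In the anti-PD1 group, mouse 1109 stood apart on chromosome 18 at a level of 0.48 (log2 ratio), against 0.12 for the nearest mouse, and with 97.3% of its windows gained, against 33.3%. The same mouse stood apart in 3 windows of chromosome 18, with 0.81 at 90 Mb (nearest 0.46), 0.54 at 45 Mb (nearest −0.03) and 0.61 at 63 Mb (nearest 0.16). Mouse 608 had 18.5% of chromosome 19 gained on average over its 3 lesions, against 0 in every other anti-PD1 mouse. The lost share of chromosome 18 was 1.33% in anti-PD1 mouse 2097, against 0.444% in the nearest mouse, and 2.67% in CD-HFD mouse 822, against 0 in the other CD-HFD mice. After GC correction no loss of chromosome 18 was called in any tumour.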

How the results depend on the processing

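Of 254 values recomputed under alternatives, 218 were classed as unchanged. A difference between groups was classed so if it kept its direction and its side of the threshold. A count of tumours, windows or probes was classed so if it was equal to the count above or within a fixed ratio of it. No window, probe, chromosome or share passed the test between groups under any alternative. Signs below are anti-PD1 minus CD-HFD.

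The number of tumours with a gain of chromosome 18 (9) was 1 with GC correction, 1 with the deposited loess ratios, 1 with the median profile subtracted, 3 with a penalty of 6, 2 with probes of both designs, and 4 with GC correction and a threshold of 0.1, an alternative chosen after seeing the data. That with a loss of chromosome 18 (3) was 0 under each of these. That with a loss of chromosome 19 (10) was 1 with GC correction, 2 with GC correction and a threshold of 0.1, 1 with the median profile subtracted and 3 with probes of both designs. That with a gain of chromosome 19 (1) was 2 with loess, 3 with the median profile subtracted, 0 with normexp and 5 at a threshold of 0.1. The cause was not tested.

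The difference in level turned on chromosome 18 (0.04) to −0.023 within slide 2, and on chromosome 19 (−0.02) to 0.0024 with the slide as a fixed term and 0.040 within slide 1. The gained share of chromosome 18 (15.9) was −0.222 within slide 2, that of chromosome 19 (2.64) −1.62 at a threshold of 0.1. The lost share of chromosome 18 (−0.127) was 0.0635 with normexp, 0.254 at a threshold of 0.3 and 0.444 within slide 2, that of chromosome 19 (0.383) −6.85 within slide 1. Within a slide, 3 against 3 mice cannot give an exact p below 0.1.

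Leaving out each mouse in turn, the differences ran from 0.01 to 0.06 (level, chromosome 18), −0.050 to 0.0016 (level, chromosome 19), 3.15 to 19.4 and 0 to 3.08 (gained shares of 18 and 19), and −0.307 to 0.254 and −1.96 to 2.78 (lost shares); the lowest on chromosome 18 level and gain is without mouse 1109. Adjusted p ranged from 0.528 to 0.975 and from 0.499 to 0.985 for the levels. No paired analysis was possible because no mouse was in both groups and replicate numbers were given in accession order.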

Other observations

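Large ratios of single probes are given here as counts. Of the 5951 probes on the pair of chromosomes, 119 reached an absolute log2 ratio of 2 in at least 1 tumour, 65 on chromosome 18 and 54 on chromosome 19, beside 2253 of the 96579 probes on all chromosomes. At an absolute log2 ratio of 4 there were 6 such probes, all on chromosome 19, beside 101 on all chromosomes. They were the Glis3 pair, above 4 in 4 tumours each with a reference not well above background, and 4 others, each below −4 in 1 tumour.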
